A study of Mus musculus with 6 samples.

Results

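The genes of liver X receptor (LXR) signalling and cholesterol export were followed in cultured mouse bone marrow mesenchymal stromal cells (BMSCs) treated with retinoic acid (RA). They were taken by name from the deposited tables, as 8 of the 25722 genes listed: the LXR genes Nr1h2 and Nr1h3, and Abca1, Abcg1, Apoe, Mylip, Lpcat3 and Soat1. All 8 passed the expression filter. LXR binds DNA as a dimer with RXR, the same partner that the RA receptor RAR uses, so the comparison asks whether RA moved LXR genes and their targets. RNA of C57BL/6 wild-type cells was sequenced in 3 control libraries, given DMSO as the solvent, and in 3 libraries that received all-trans RA. Both groups were grown at 5% oxygen in low-glucose DMEM with 20% serum and 10 µM ROCK inhibitor. The labels give 1 µM RA and 48 h, while the methods of the study give another dose and a shorter time. The labels also speak of 2 biological replicates where 3 libraries per group were available. Whether the libraries came from separate cultures is not stated, so the p-values measure only the spread between these libraries, which may be technical.

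LXRs are nuclear receptors that sense oxysterols, the oxidized forms of cholesterol. Without ligand, LXR and RXR sit on target genes with corepressors, and an LXR ligand or an RXR ligand can switch the dimer to activation. The best known targets move cholesterol out of macrophages: Abca1 and Abcg1 encode transporters that hand cholesterol to apolipoproteins and to high-density lipoprotein, and Apoe encodes one of those acceptors. Mylip, also called IDOL, marks the LDL receptor for degradation, and Lpcat3 remodels membrane phospholipids. Soat1 encodes the enzyme that esterifies cholesterol for storage, the alternative to export.

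The RefSeq promoters (GRCm38.p6, 250 bases before to 50 after each start) were read for the spacing that each dimer prefers, because both share the half-site AGGTCA. LXR with RXR favours a direct repeat with 4 bases between the half-sites (DR4, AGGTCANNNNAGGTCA), and RAR with RXR favours 5 bases (DR5, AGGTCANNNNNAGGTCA). Both strands were searched. Promoters were listed for 7 of the 8 genes (10 promoters), all but Abcg1. With at most 2 mismatches at the 12 fixed bases, 0 of the 7 genes held a DR4 and 0 held a DR5, where 3.47% and 3.23% of the 27025 genes with a promoter did. Of 6 retinoid response genes with a promoter, 2 (Rarb and Cyp26a1) held a DR5 at that limit. With 3 mismatches, a limit chosen after the sequences were seen, 24.5% of all genes held a DR4 and 24.1% a DR5. At that limit Abca1 had the only DR4 among the 7 genes and Apoe the only DR5. The absence of a match says only that these letters are not in this window, and a match is not a bound site. The 250 bases before the start of Abca1 and of Rarb, an RAR gene that is a textbook RA target, are shown to compare the closest match of an LXR target with those of an RA target. Capitals mark the half-sites, and both genes lie on the minus strand.
Abca1 (chr4:53159896-53160145): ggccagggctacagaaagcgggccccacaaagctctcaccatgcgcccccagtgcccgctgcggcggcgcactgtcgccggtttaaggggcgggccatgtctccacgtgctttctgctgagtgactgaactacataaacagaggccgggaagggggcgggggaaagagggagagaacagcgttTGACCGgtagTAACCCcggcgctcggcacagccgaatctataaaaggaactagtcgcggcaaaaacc
Rarb (chr14:16575477-16575726): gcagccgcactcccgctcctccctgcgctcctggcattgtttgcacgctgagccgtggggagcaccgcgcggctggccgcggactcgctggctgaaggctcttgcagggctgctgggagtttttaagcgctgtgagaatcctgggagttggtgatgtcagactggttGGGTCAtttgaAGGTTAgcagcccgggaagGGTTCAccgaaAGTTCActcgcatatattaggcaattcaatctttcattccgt
The Abca1 match lies on the strand opposite to the gene, from base -67 relative to the start. Read on its own strand it is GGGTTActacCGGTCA. It differs from the DR4 by A1G, C5T and A11C, with positions counted from 1 at the 5′ end of the repeat. The Rarb window held a DR5 with 2 mismatches (A1G and C16T) from base -83 and another with 3 (A1G, G3T and G14T) from base -53, both on the strand of the gene. The Apoe match, AGGGGAgcgggGGGTCA from base -39, differs from the DR5 by T4G, C5G and A12G.

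The libraries held between 14737636 and 18511905 counts, and each of the 8 genes had at least 383 counts in every library (the lowest was Mylip in RA replicate 1), so counting error was small beside the spread between libraries except for Lpcat3, whose spread was about as small as counting alone gives. Treatment was not the main division among the libraries. Over the 1000 genes that varied most, principal component 1 (57.2% of variance) separated control replicate 2 and RA replicates 1 and 2 (library set 1) from control replicates 1 and 3 and RA replicate 3 (library set 2). The split was the same when every gene of the lists used here was left out. No source used here gives a batch or a date for it. Counts on mitochondrial genes made up 0.582% to 0.783% of the total in 5 libraries and 1.513% in RA replicate 2. Against the label, all 15 macrophage markers were expressed, and their summed level was 21580 to 23640 CPM (reads scaled to a shared library size by the TMM method) in control and 20990 to 22280 in RA libraries. The 12 mesenchymal markers summed to 2306 to 4434 CPM in control and 1688 to 3458 in RA libraries. Of these, 10 passed the filter, and Col1a1 had the highest mean, 878.1 CPM over the libraries. Thy1 and Nt5e fell below the filter, and Thy1 was at 0 in RA replicate 3. Adipocyte markers summed to at most 23.47 CPM, endothelial markers to at most 17.19, and markers of other marrow cells to at most 1.842. In bulk RNA, fewer cells of a type and less RNA per cell cannot be told apart.

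Whether RA acted in these libraries was read from Cyp26b1, and Rarb is described beside it. Cyp26b1, which encodes an enzyme that degrades RA, stood at 4.973, 5.956 and 4.676 CPM in control replicates 1 to 3 and at 123.7, 109.6 and 87.12 CPM in RA replicates 1 to 3. Its log2 fold change was 4.35 (standard error 0.19, adjusted p = 0.00207 by edgeR's quasi-likelihood test). Rarb had 0.2802, 0.6914 and 0.1375 CPM in control and 7.059, 5.96 and 4.503 CPM in RA libraries, a log2 fold change of 3.90 that missed the threshold in the same test (adjusted p = 0.156), and its control levels rest on few counts. Rarb passed the expression filter only through the RA libraries, so its values are a description and no support. Both genes were higher in every RA library than in every control library.

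Of the 8 genes of LXR signalling and cholesterol export, 0 were called between RA and control BMSCs at 1.5-fold or more and an adjusted p below 0.05 in edgeR, where 0.0433% of all 13842 tested genes (6 genes) were. At an unadjusted p under 0.05, 0 of the 8 genes passed in edgeR, against 5.25% of all genes. DESeq2 called 0 of the 8, against 0.483% of the 25243 genes to which it gave an adjusted p. It put 0 of the 8 under an unadjusted p of 0.05, against 3.24% of the 25698 genes with a p. For 0 of the 8 genes did the RA libraries lie apart from the control libraries, which 12.6% of all genes did. The log2 fold changes ran from -0.60 to 0.20, with 6 genes lower and 2 higher after RA, and their median was -0.15 beside -0.02 over all genes. Changes inside the 95% intervals were not detectable at this spread, and the widest interval, that of Apoe, ran from -3.05 to 1.84 on the log2 scale.

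**Figure D1:**
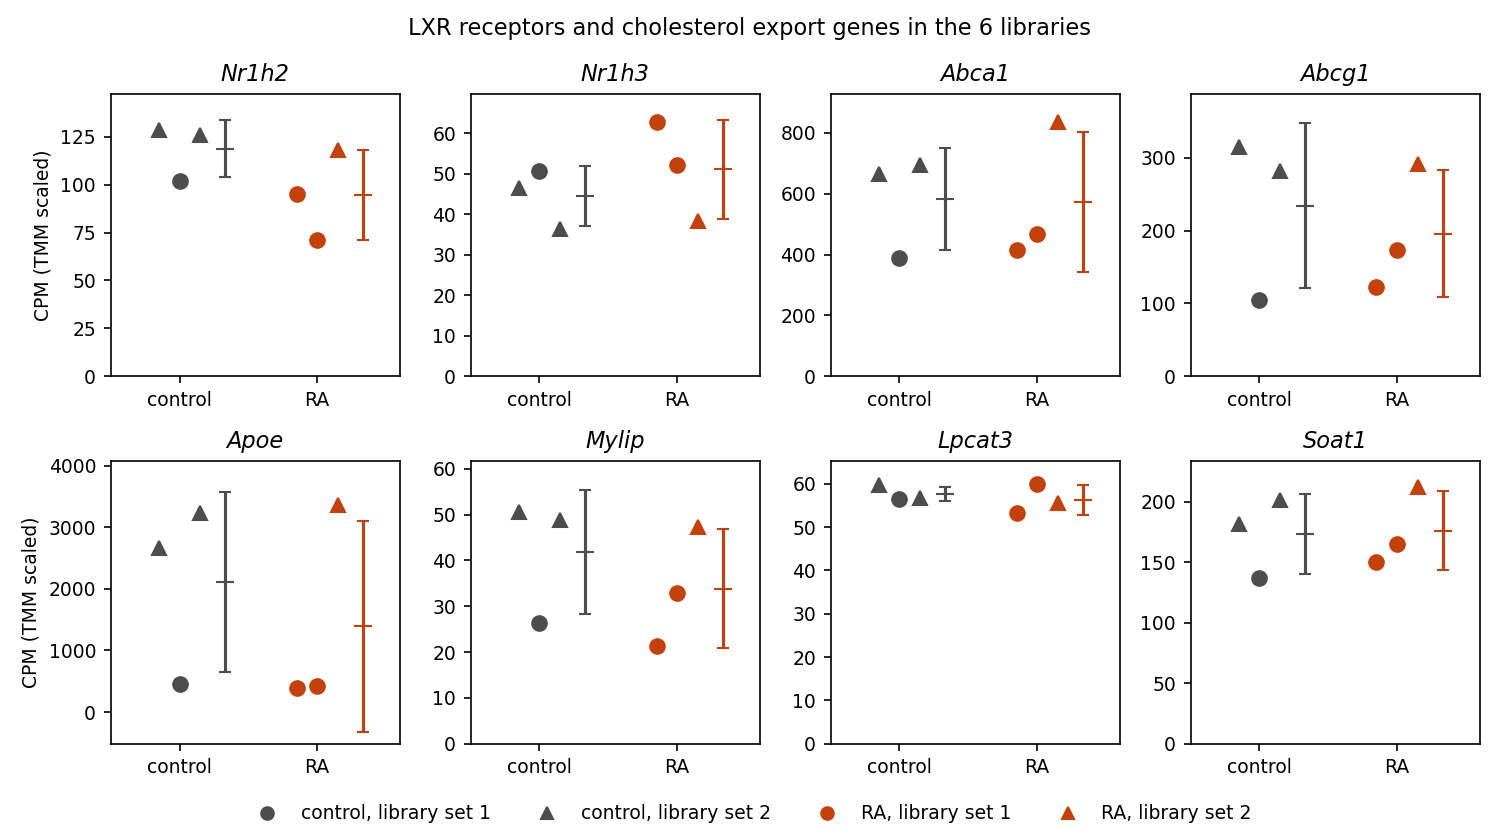
Expression of the 8 genes in each library, in TMM scaled CPM (vertical axes start at 0 except for Apoe, where the SD bar of the RA group reaches below 0). Grey is control, orange is RA, circles are library set 1, triangles are library set 2, and the bars give the mean ± SD of 3 libraries. Control and RA points overlap in every panel, and in every panel but Lpcat3 the circles and triangles lie apart.

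The receptor genes came first. Nr1h2, which encodes the broadly expressed LXRβ, had 128.7, 102 and 126 CPM in control replicates 1 to 3 and 95, 71.27 and 118.1 CPM in RA replicates 1 to 3. The mean was 118.9 ± 14.7 CPM in control (SD, n = 3) and 94.8 ± 23.4 after RA (SD, n = 3). The groups overlapped, since RA replicate 3 lay above control replicate 2. The log2 fold change of Nr1h2 was -0.33 (95% interval -0.81 to 0.16, edgeR adjusted p = 0.795). Nr1h3, which encodes LXRα, the form of macrophages, liver and fat, had 46.44, 50.68 and 36.31 CPM in control and 62.76, 52.18 and 38.41 CPM in RA libraries. RA replicate 3 lay below control replicates 1 and 2, so these groups overlapped as well. The log2 fold change of Nr1h3 was 0.20 (95% interval -0.31 to 0.71, edgeR adjusted p = 0.832).

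The balance between the receptors was read as the ratio of Nr1h3 to Nr1h2 in CPM per kilobase of exon. It was 0.481, 0.663 and 0.384 in control replicates 1 to 3 and 0.881, 0.976 and 0.434 in RA replicates 1 to 3. The ratio was below 1 in all 6 libraries, so Nr1h2 had the higher level per length throughout. It was highest in RA replicates 1 and 2, but control replicate 2 exceeded RA replicate 3. The mean difference of 0.535 (log2, RA minus control) gave p = 0.3 in a two-sided exact permutation test, where 0.1 is the smallest p that 3 libraries against 3 allow. Within library set 1 both RA libraries exceeded the control, and within set 2 RA replicate 3 (0.434) lay between the controls (0.384 and 0.481).

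The export transporters differed more among libraries than between treatments. Abca1 had 665.9, 388.9 and 693.8 CPM in control replicates 1 to 3 and 414.3, 467.8 and 836.2 CPM in RA replicates 1 to 3. The control mean of 582.9 ± 168.5 CPM (SD, n = 3) and the RA mean of 572.8 ± 229.7 (SD, n = 3) were close beside these spreads. The log2 fold change of Abca1 was -0.03 (standard error 0.34, 95% interval -0.83 to 0.78, edgeR adjusted p = 0.988). Abcg1 had 315.2, 104.3 and 282.1 CPM in control and 122.2, 173.5 and 291.7 CPM in RA libraries. The lowest value of Abcg1 was a control and the highest was another control. Its log2 fold change was -0.26 (95% interval -1.39 to 0.87, edgeR adjusted p = 0.896).

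Apoe showed the widest range. It had 2656, 456.3 and 3232 CPM in control replicates 1 to 3 and 392.6, 417.1 and 3370 CPM in RA replicates 1 to 3. Both the highest and the lowest library were RA libraries. The control mean was 2115 ± 1465 CPM (SD, n = 3) and the RA mean 1393 ± 1712 (SD, n = 3). The log2 fold change of -0.60 had a standard error of 1.02, larger than the change itself (edgeR adjusted p = 0.888). Without RA replicate 3 the log2 fold change of Apoe was -2.39, and without RA replicate 1 it was -0.14, neither of them called. Without RA replicate 3, 2 of the 8 genes had an unadjusted p under 0.05 in edgeR, Apoe (unadjusted p = 0.022) and Nr1h2 (unadjusted p = 0.0309), against 14.4% of all genes in that fit. Both had an adjusted p of 0.332 there, and the library left out is the RA library of set 2.

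Mylip, which lowers LDL uptake, had 50.5, 26.33 and 48.89 CPM in control and 21.29, 32.97 and 47.21 CPM in RA libraries, and its log2 fold change was -0.31 (95% interval -1.16 to 0.54, edgeR adjusted p = 0.838). Soat1, the storage enzyme, had 181.8, 137.1 and 201.3 CPM in control and 150.5, 165.4 and 212.7 CPM in RA libraries, with a log2 fold change of 0.02 (95% interval -0.45 to 0.49, edgeR adjusted p = 0.981). In both genes the RA values overlapped the control values. Lpcat3 was the steadiest of the 8, with 59.6, 56.53 and 56.73 CPM in control and 53.14, 60.04 and 55.6 CPM in RA libraries. Its interval was the narrowest, from -0.28 to 0.21 on the log2 scale around a fold change of -0.03 (edgeR adjusted p = 0.939).

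Levels can be compared between genes only per length. In CPM per kilobase of exon, averaged over the 6 libraries, the order was Apoe (820.4), Abca1 (55.76), Nr1h2 (31.85), Abcg1 (29.44), Nr1h3 (19.00), Soat1 (17.85), Lpcat3 (17.42) and Mylip (11.71). Apoe stood at the 99.8 percentile of tested genes by this level, Abca1 at 94.1 and Mylip at 70.8. Apoe exceeded Abca1 in every library, and its lowest library (183.6) was above the highest of Abca1 (80.69). From Abca1 down to Lpcat3, each gene overlapped its neighbour in this order in its range over libraries. Within single libraries Abca1 exceeded Nr1h2 in all 6, but Abcg1 exceeded Nr1h2 in 4 of 6, the reverse of their means, and Nr1h3 exceeded Abcg1 in 2. Nr1h3 and Soat1 each led the other in 3 libraries, as did Soat1 and Lpcat3, so the middle of this order is not fixed. Mylip, from 6.585 to 15.62, lay below Lpcat3, from 16.26 to 18.37.

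The 8 genes followed the library sets more than the treatment. For 7 of the 8 genes the 2 sets did not overlap, against 47.7% of all tested genes. The sets were drawn from the expression of these same libraries, so this is a description with no test. Of the 7 genes, 6 were lower in set 1 and 1, Nr1h3, was higher. The set 1 minus set 2 difference in log2 CPM was -2.87 for Apoe, -1.18 for Abcg1, -0.88 for Mylip, -0.79 for Abca1, -0.49 for Nr1h2, -0.40 for Soat1 and 0.45 for Nr1h3. For Lpcat3 it was -0.02. The median size of this difference, whatever its sign, was 0.64 over the 8 genes and 0.31 over all genes. Set 1 held 1 control and set 2 held 1 RA library, so these lone libraries have no spread of their own.

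When library set entered the fit as a covariate, the intervals of all 8 genes narrowed, and 0 of the 8 genes were called, where 1.54% of all genes were. The sets were drawn from the expression of these same libraries, so the intervals and p-values of this fit can be too narrow and too small. They are given as a description, here and below. At an unadjusted p under 0.05, 1 of the 8 genes passed in this fit against 15.1% of all genes. That gene was Abca1. It was higher in both RA libraries of set 1 (414.3 and 467.8 CPM) than in the control of that set (388.9), and higher in the RA library of set 2 (836.2) than in its controls (665.9 and 693.8). Its log2 fold change with the covariate was 0.24 (95% interval 0.04 to 0.44, unadjusted p = 0.0230, edgeR adjusted p = 0.262), which fails the adjustment over all genes. Within set 1 the difference was 0.18 and within set 2 it was 0.30 (log2). Without the covariate its sign was the opposite.

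**Figure D2:**
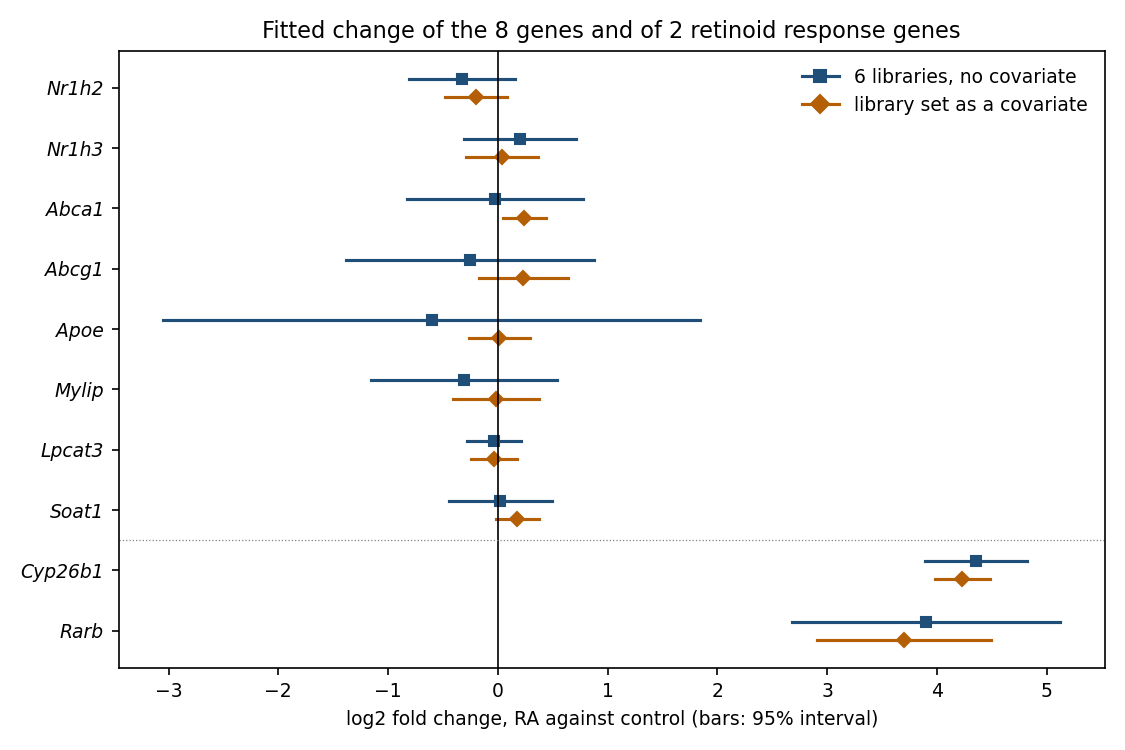
Fitted log2 fold changes of RA against control for the 8 genes and for the retinoid response genes Cyp26b1 and Rarb, with 95% intervals. Squares are the fit over 6 libraries with no covariate and diamonds the fit that included library set. The bar of Apoe shrinks from -3.05 to 1.84 without the covariate to -0.26 to 0.29 with it, while the lower bound of Cyp26b1 is 3.89 in the first fit and 3.98 in the second.

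The other genes moved less in this fit or varied more. For Apoe the log2 fold change was 0.01 (95% interval -0.26 to 0.29, edgeR adjusted p = 0.968), with -0.17 within set 1 and 0.20 within set 2, so the treatment differences pointed in opposite directions in the sets. Abcg1 had 0.23 (95% interval -0.17 to 0.64, edgeR adjusted p = 0.534), with 0.48 within set 1 and -0.03 within set 2. Soat1 had 0.18 (95% interval -0.02 to 0.37, edgeR adjusted p = 0.362) and was higher in the RA libraries within both sets. Nr1h2 had -0.20 (95% interval -0.48 to 0.08, edgeR adjusted p = 0.452) and was lower in the RA libraries within both sets. The remaining 3 genes had log2 fold changes of 0.04 (Nr1h3), -0.02 (Mylip) and -0.03 (Lpcat3). Altogether 3 of the 8 genes (Abca1, Soat1 and Nr1h2) kept their RA libraries on the same side of the controls in both sets, beside 42% of all tested genes, so their share was not above the background.

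Cell type markers were read beside the set difference of Apoe. The summed macrophage markers were 20990 to 22290 CPM in set 1 and 21580 to 23640 in set 2. The similar sums hide differences of both signs, since 11 of the 15 markers were lower and 4 higher in set 1. Lyz2 and Adgre1, which differed in opposite directions, made up 52.7% to 66.6% of the sum. The following markers were named after their values were seen. The complement genes C1qb and C1qc were lower in set 1, with 1061, 1103 and 1092 CPM against 1865, 1936 and 1945 for C1qb. Lyz2, the macrophage lysozyme, was higher in set 1, with 9779, 8722 and 9184 CPM against 5543, 6629 and 6076. The median set 1 minus set 2 difference over the 15 macrophage markers was -0.42 (log2). The mesenchymal markers summed to 2217 to 4434 CPM in set 1 and 1688 to 2548 in set 2, with a median difference of 0.62 (log2) over the 10 tested. Between RA and control, edgeR without a covariate called 0 of the mesenchymal markers. Ly6a fell with DESeq2 (-0.90, adjusted p = 3.775e-05) and in edgeR with library set in the fit (-0.91, adjusted p = 0.0152). Lepr had 0.4903, 0.4786 and 0.4813 CPM in control and 2.501, 3.043 and 9.483 CPM in RA libraries, and it passed the filter only through the RA libraries, so these values are a description. Their part in the levels of Apoe, Abcg1 and Abca1 was not tested.

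**Figure D3:**
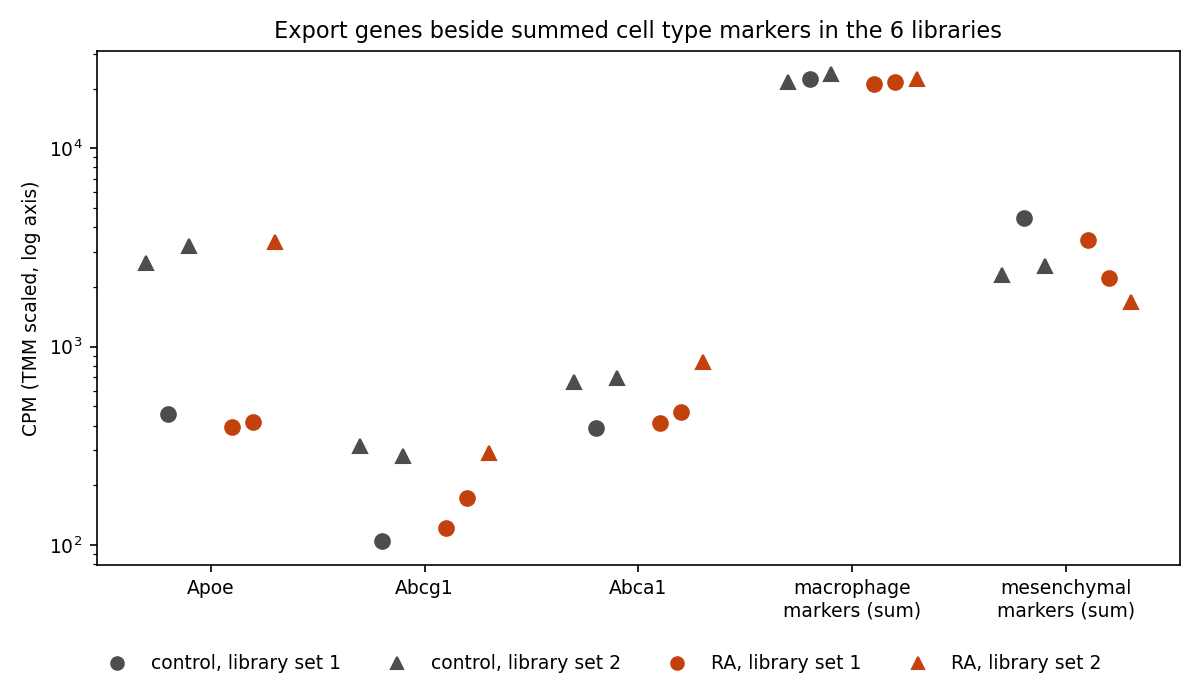
Apoe, Abcg1 and Abca1 beside the summed macrophage and mesenchymal markers in each library, in TMM scaled CPM on a log axis. Grey is control, orange is RA, circles are library set 1 and triangles are library set 2. Apoe is between 392.6 and 456.3 in set 1 and between 2656 and 3370 in set 2, while the macrophage sum, whose genes differ in both directions between the sets, is between 20990 and 23640.

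The profiles most like those of Abca1 and Apoe were found among the 10411 tested genes with a mean of at least 5 CPM, by the root mean square difference of mean-centred log2 CPM over the 6 libraries. Nearest to Abca1 were Ogt (0.0461), which encodes the enzyme that adds O-GlcNAc to proteins, Tcn2 (0.0466), which encodes a carrier of vitamin B12, and AC149090.1 (0.0468). Each was low in the libraries of set 1 and highest in RA replicate 3. Tcn2, for example, had 120.1, 72.43 and 139.4 CPM in control and 78.99, 88.13 and 157.3 CPM in RA libraries. Nearest to Apoe were Gpr162 (0.251), Cxcr4 (0.28), which encodes the receptor of the chemokine Cxcl12, and Entpd1 (0.289), which encodes an enzyme that breaks down extracellular ATP. Cxcr4 had 17.58, 1.968 and 22.69 CPM in control and 1.723, 2.917 and 23.2 CPM in RA libraries, again parted by set. Among the 8 genes themselves the closest profiles were those of Abca1 and Mylip (0.197), and the farthest those of Nr1h3 and Apoe (1.68).

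A further list held 22 other LXR targets, of which 17 were tested. Of these, 0 rose and 0 fell, 10 had a log2 fold change above 0 and 7 below, and the median was 0.03. The highest were Scd1 (0.54, edgeR adjusted p = 0.795) and Fads2 (0.37, edgeR adjusted p = 0.803), both of which encode fatty acid desaturases. The lowest were Cd5l (-0.92, edgeR adjusted p = 0.903), a macrophage protein also called AIM, and Pltp (-0.49, edgeR adjusted p = 0.847), the phospholipid transfer protein. Cd5l had 1958, 12.13 and 1575 CPM in control replicates 1 to 3 and 40.41, 69.56 and 1758 CPM in RA replicates 1 to 3. Pltp had 747.7, 209.1 and 712.8 CPM in control and 240.6, 220.5 and 726.4 CPM in RA libraries. Both genes were low in set 1 and high in set 2 as Apoe was, while the median set difference of the 17 genes was -0.01 (log2). Scd1 differed the other way, by 0.98 (log2) between set 1 and set 2.

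RXR genes and LXR cofactors were 17 genes, of which 16 were tested, 0 rose and 0 fell, with a median log2 fold change of 0.02. Rxrg had at most 1 count in a library and fell below the filter. Rxrb (-0.44, edgeR adjusted p = 0.803) was the lowest. Rxra, the other RXR gene expressed here, had -0.31 (edgeR adjusted p = 0.795) and is named outside the rule. Nrip1, which encodes the corepressor RIP140 and is a known RA target, was the highest. It was higher in every RA library than in every control library, with 42.7 ± 3.36 CPM in control (SD, n = 3) and 70.0 ± 11.5 after RA (SD, n = 3), and its log2 fold change was 0.71 (standard error 0.15, edgeR adjusted p = 0.355). With DESeq2 it was called (adjusted p = 0.0464). Ncoa6, a coactivator, had 0.10 (edgeR adjusted p = 0.852).

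Enzymes that make or clear oxysterols numbered 9, with 7 tested, 0 called in either direction and a median log2 fold change of -0.05. Ch25h, which makes 25-hydroxycholesterol, an LXR ligand, was the lowest at -0.56 (edgeR adjusted p = 0.822), ahead of Hsd3b7 at -0.30, an enzyme of bile acid synthesis. The highest among genes of at least 5 CPM was Ebp (-0.02), which acts late in cholesterol synthesis. Below that level, and named after its values were seen, Cyp7b1, which clears oxysterols, had 0.3502, 0.7445 and 0.1375 CPM in control and 2.39, 1.966 and 0.8869 CPM in RA libraries. It was higher in every RA library than in every control library, but it passed the filter only through the RA libraries, so these values are a description. Genes of cholesterol uptake and trafficking numbered 19, with 18 tested, 0 called and a median of -0.07. The highest was Lipa (0.67, edgeR adjusted p = 0.531), the lysosomal acid lipase that frees cholesterol from esters, and after it Msr1 (0.61, edgeR adjusted p = 0.845), a scavenger receptor. Lipa passed both thresholds in the fit that included library set (log2 fold change 0.75, edgeR adjusted p = 0.0323), a description because the sets come from these data. It was higher in every RA library than in every control library, with 566.3 ± 96.8 CPM in control and 898.8 ± 90.3 after RA (SD, n = 3 each). The lowest were Cav1 (-0.92, edgeR adjusted p = 0.681) and Gramd1a (-0.58, edgeR adjusted p = 0.795), which carries cholesterol from the plasma membrane to the endoplasmic reticulum.

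Paralogs of the export genes and lipoprotein acceptors numbered 9, with 6 tested and 0 called in either direction. Their median was -0.10, and the tested genes of at least 5 CPM that the rule names ran from Abca7 (-0.18) and Lpcat1 (-0.12) to Lpcat2 (-0.07) and Lpcat4 (0.06). All 20 genes of cholesterol synthesis were tested, 0 were called, and 10 were above 0 and 10 below with a median of 0.02. Insig1, which holds SREBP in the endoplasmic reticulum, was the highest at 0.24 (edgeR adjusted p = 0.865), followed by Sc5d at 0.22. When library set was included, Insig1 had 0.52 (edgeR adjusted p = 0.0269), which passes the p threshold but not the 1.5-fold one. Mvd (-0.43) and Scap (-0.29) were the lowest (edgeR adjusted p = 0.795 for both). PPAR also pairs with RXR, and its targets were read for comparison. Of 11, 10 were tested, 0 were called, and the median was 0.11. Pdk4, which slows glucose oxidation, was the highest gene the rule names at 0.96 (edgeR adjusted p = 0.611), and it rose when library set was included (0.77, edgeR adjusted p = 0.0150). Cd36, a fatty acid transporter, had 0.51 (edgeR adjusted p = 0.638), while Ucp2 (-0.28) and Acadm (-0.02) were the lowest.

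The retinoid response list had 10 genes, of which 7 were tested and all 7 had a log2 fold change above 0. Of these, 1 rose (Cyp26b1) and 0 fell in edgeR, and 5 rose when the fit included library set. The call of Cyp26b1 was lost without control replicate 1 and held in the 5 other fits that each left out 1 library. Genes of this list that are near 0 in control libraries passed the filter only through the RA libraries, so their median is not given as a result. How the lists differ from each other was not tested.

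**Figure D4:**
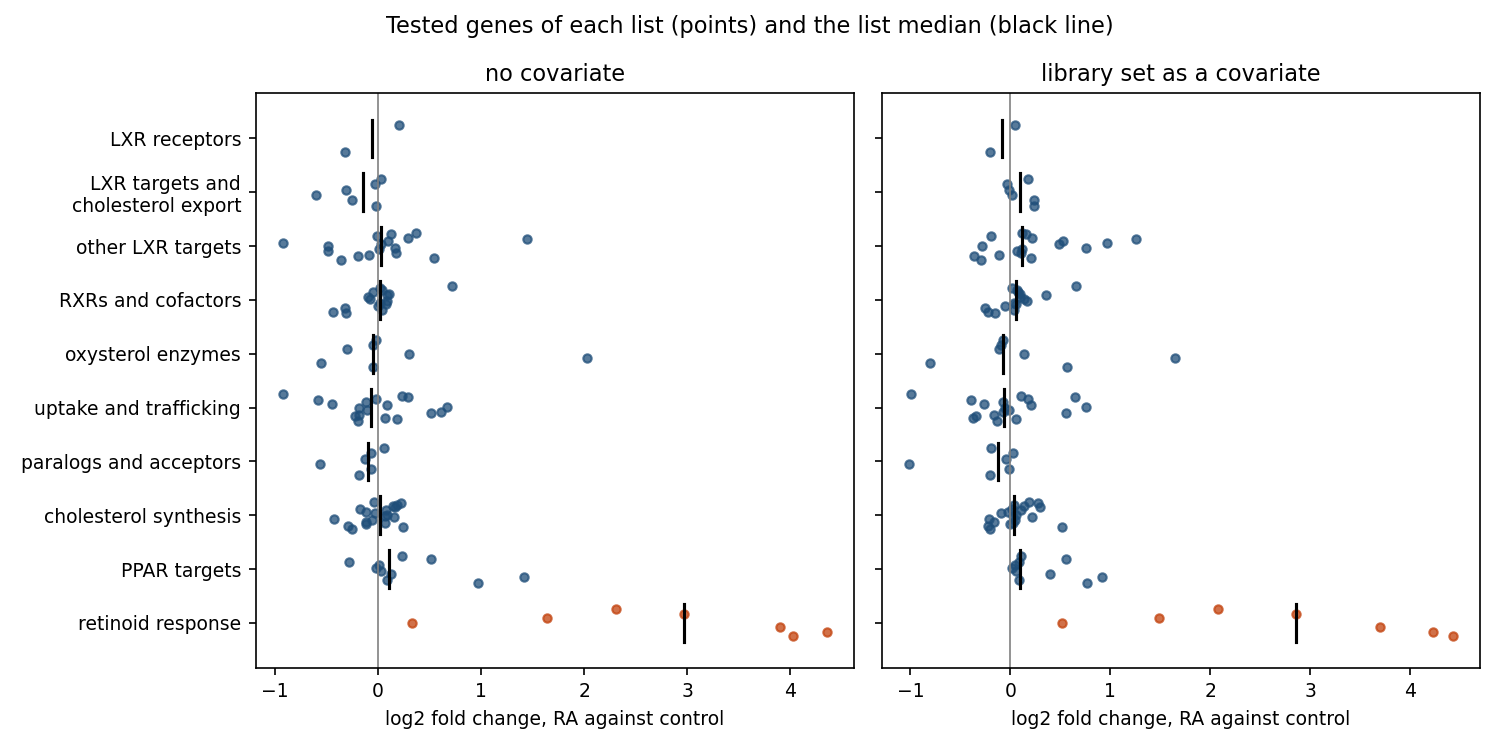
Log2 fold changes of RA against control for the tested genes of each list, without a covariate (left) and with library set in the fit (right). Each point is a gene and each black line a list median. The 6 LXR target and export genes lie between -0.60 and 0.02 on the left, while the 7 retinoid response genes all lie above 0 in both panels.

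The positions below are those of GENCODE M21 on GRCm38, the build that matches the mm10 of the submitters' processing notes. Nr1h2 (ENSMUSG00000060601) lies on chromosome 7 from 44549616 to 44553951 and Nr1h3 (ENSMUSG00000002108) on chromosome 2 from 91184061 to 91202834. Abca1 (ENSMUSG00000015243) lies on chromosome 4 from 53030787 to 53159895 and Abcg1 (ENSMUSG00000024030) on chromosome 17 from 31057675 to 31117988. Apoe (ENSMUSG00000002985) lies on chromosome 7 from 19696109 to 19699188 and Mylip (ENSMUSG00000038175) on chromosome 13 from 45389742 to 45412022. Lpcat3 (ENSMUSG00000004270) lies on chromosome 6 from 124663027 to 124704418 and Soat1 (ENSMUSG00000026600) on chromosome 1 from 156424525 to 156474331. Annotated genes overlap Nr1h3 (Gm13783 and Gm23390), Abcg1 (Gm25447), Lpcat3 (Emg1) and Soat1 (Gm37648). Whether the counting used strand is not given in the sources used here, so reads of these 4 genes and of their overlapping neighbours could be mixed.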

How the data were processed

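The authors deposited 1 table for each library, which holds raw, unnormalized read counts by gene. Submitters' processing notes name Bowtie2 2.2.3 and mm10, and the counting program is not given in the sources used here. GENCODE M21 held 25706 of the 25722 identifiers. In R 4.3.3, edgeR 4.0.16 (quasi-likelihood F test, TMM scaling, 13842 genes left by filterByExpr) compared 3 RA with 3 control libraries without covariates, with Benjamini-Hochberg adjustment over all tested genes. Log2 CPM used a prior count of 2. The alternatives were DESeq2 1.42.0, other scalings and filters, the replicate number as a block, library set as a covariate and leaving out each library. The script was tested on simulated data. The members and lists were chosen with earlier results of these data known. Named were the 8 genes, called list genes, the 2 highest and 2 lowest of each list at a mean of at least 5 CPM, Cyp26b1, Rarb and the 3 nearest profiles of Abca1 and Apoe. Of the genes this rule names, 2 are not reported here. Totals of 14737636 to 18511905 counts leave little counting error for the 8 genes beside the spread of all but Lpcat3.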

Additional observations from a re-analysis of the deposited data

How the results depend on the processing

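None of the 8 genes was called under any of the 13 alternatives, and the smallest edgeR adjusted p among all their fits was 0.262. The direction of single genes was less firm: of 104 values of a gene under an alternative, 14 had the other sign. With scaling by library size alone, which moved the median of all genes from -0.02 to 0.03, Abca1 had 0.015 and Lpcat3 0.0095 (log2). With library set in the fit Abca1 had 0.24, Abcg1 0.23 and Apoe 0.012. With 1 library left out, Nr1h2 ran from -0.52 to -0.16, Nr1h3 from 0.049 to 0.37, Mylip from -0.63 to -0.040 and Apoe from -2.39 to -0.14, while Abca1 ran from -0.40 to 0.18, Abcg1 from -0.66 to 0.018, Lpcat3 from -0.083 to 0.028 and Soat1 from -0.14 to 0.15, and the median of the 8 genes from -0.46 (without RA replicate 3) to 0.022 (without RA replicate 1).

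Over all genes, 5 rose and 1 fell. The numbers were 87 and 35 with DESeq2, 103 and 110 with library set in the fit, 17 and 3 without a filter, 295 and 196 with an unadjusted p, 6 and 0 with library size scaling, and 0 to 6 and 0 with 1 library left out (0 higher without control replicate 1). The other lists, apart from the retinoid response and the cell type markers, held 0 genes that rose, against 1 with DESeq2 (Nrip1) and 2 with the covariate (Lipa and Pdk4). Among the markers, 0 were called, but Ly6a fell both with DESeq2 and with the covariate, and Lepr, which passed the filter only through the RA libraries, was called in the same fits. With at most 3 mismatches, chosen after seeing the data, 1 gene held a DR4 and 1 a DR5. Why the numbers of genes called differed between fits was not tested, and the sets of the covariate were drawn from these same data. Same-numbered libraries deviated from their group means with correlations of -0.51, 0.343 and 0.572 for replicates 1 to 3. The libraries of replicates 2 and 3 shared a library set and those of replicate 1 did not. These values therefore cannot show whether the numbers pair the samples. Under the replicate block, 4 genes rose and 0 fell, 0 of the 8 genes were called, and the median of the 8 was -0.12. With 3 libraries per group, counting error was small beside the spread between libraries for all members but Lpcat3. The part of the library sets in that spread was not tested.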
